A study of Mus musculus with 18 samples.

Results

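The genes described here encode the proteins of the cytoplasmic ribosome. A gene was taken when its symbol followed the naming of these proteins (Rpl or Rps with a number and at most 1 further letter, a or x, or Rplp0, Rplp1, Rplp2 and Rpsa) and its mean over the 18 libraries was at least 100 counts. Of 55401 identifiers in the count table, 76 carried such a name and 55 reached that level, 21 of them genes of the small subunit and 34 of the large subunit. All 55 passed the filter on low counts in every fit.

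The RNA-seq libraries came from mouse embryonic fibroblasts (MEFs), primary cells grown from embryos, in 2 series of 9 libraries with 3 libraries per group. In the S6K1 series, S6K1 WT cells carried an empty retroviral vector (EV) or constitutive RAS, and S6K1 KO cells carried RAS. In the S6K1/S6K2 series, WT cells carried EV or RAS, and S6K1/S6K2 DKO cells carried RAS. S6K1 WT and KO cells came from littermates, while the DKO cells and their WT controls came from different mothers. KO or DKO cells with EV were not analysed here, so loss of the kinases was compared only in cells carrying RAS. All 6 groups were virally transduced and selected with puromycin, and the RAS was a constitutively active HRAS cDNA driven from the vector.

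A eukaryotic ribosome holds a small subunit, which reads the mRNA, and a large subunit, which joins amino acids and carries the acidic stalk of Rplp0, Rplp1 and Rplp2. Its proteins are made in matched amounts, and their mRNAs usually begin with a stretch of pyrimidines, the 5′ terminal oligopyrimidine motif, through which mTOR signaling controls how well they are translated. S6K1 and S6K2 are kinases downstream of mTOR complex 1, named for phosphorylating the small subunit protein Rps6. Several ribosomal proteins also act outside the ribosome: free Rpl5 and Rpl11 bind Mdm2 and so restrain the degradation of p53. RAS-induced senescence is the lasting arrest that an activated RAS oncogene causes in primary cells. The libraries measured mRNA levels, not translation or phosphorylation.

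Promoter sequences of a few of these genes show how variable the start can be. RefSeq promoters (GRCm38.p6) were matched for 42 of the 55 genes. A run of at least 8 C or T letters that touched the 5 bases on either side of the annotated start was present in 16 of the 42 (38.1%), against 11% of all 27025 genes with a promoter in the table. The runs were 9 to 21 bases long, with a median of 13.5. The letters CCGGAAG, searched on both strands of the promoter window (250 bases before the start to 50 after it) with overlaps between motifs allowed, were present in 17 of the 42 (40.5%) and in 9.93% of all genes. TATAA was present in 12 (28.6%) and in 28% of all genes. In the lines that follow, each sequence runs from 40 bases before the start to 20 bases from it, 5′ to 3′, with the pyrimidine run in capitals. Rpl15 is shown because it was the single gene called in the RAS comparisons, Rplp2 as a stalk gene with a run, Rps6 as the S6 kinase substrate, and Rplp0 and Rpl39 as genes with no such run.
Rpl15 (chr14:18270967-18271026, minus strand): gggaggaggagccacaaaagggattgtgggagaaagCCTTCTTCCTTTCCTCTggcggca
Rplp2 (chr7:141447611-141447670, plus strand): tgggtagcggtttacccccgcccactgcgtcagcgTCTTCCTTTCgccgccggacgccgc
Rps6 (chr4:86857348-86857407, minus strand): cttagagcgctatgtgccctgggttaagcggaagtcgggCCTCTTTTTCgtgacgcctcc
Rplp0 (chr5:115559427-115559486, plus strand): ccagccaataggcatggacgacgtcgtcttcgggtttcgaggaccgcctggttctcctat
Rpl39 (chrX:37085203-37085262, minus strand): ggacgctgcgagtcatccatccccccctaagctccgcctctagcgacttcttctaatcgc
The run of Rpl15 was 17 bases long, from 4 bases before the start to base 13. The runs of Rplp2 and Rps6 were both 10 bases long. Annotated starts can be some bases away from the start used in these cells, and an absent match says only that these letters are not at the annotated start.

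Counts of these genes were set beside the uniqueness of their sequence. Ribosomal protein mRNAs have many processed copies in the genome, and a 50-base read that fits several places may not be counted. The share of 50-base windows of the mRNA that occur once in the NCBIM37 genome had a median of 41.0% over the 55 genes, with a range of 1.92% to 100%, and was under 50% in 34 of them. Over the 21 genes below 100 counts the median was 14.6%, with a range of 0.338% to 43.5%, and all 21 were under 50%. Over the 76 genes, Spearman's rho between this share and counts per kb of mRNA was 0.551, and over the 55 it was 0.333. The points share libraries and gene length, so these values are a description.

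**Figure D1:**
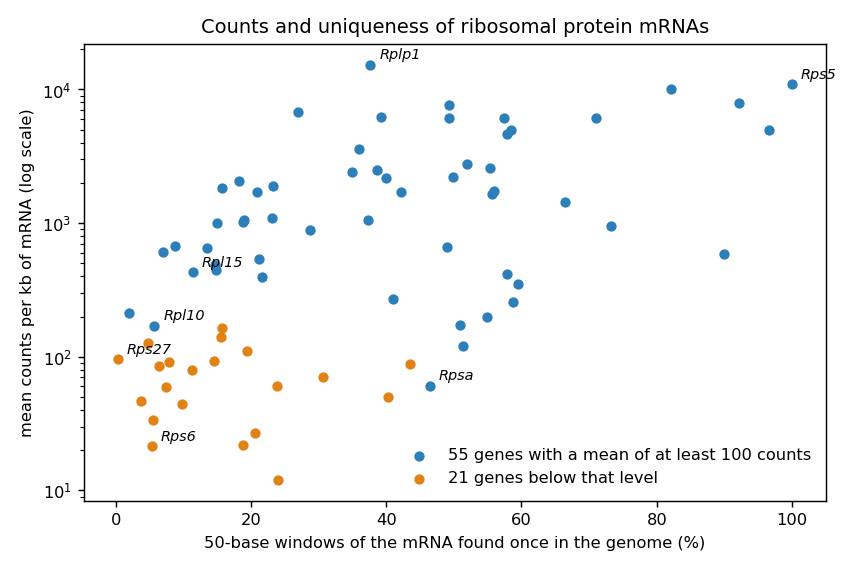
Mean counts per kb of mRNA over the 18 libraries (log scale) against the percent of 50-base windows of the mRNA found once in the genome, 1 point per gene, blue for the 55 genes with a mean of at least 100 counts and orange for the 21 below. All 21 orange points lie under 50%, among them Rps6 at 5.31%.

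The highest mean count was that of Rpl4 at 14221, and the lowest was that of Rps12 at 109.7. Just inside the threshold were Rps12 and Rpsa (112.9), and just outside it were Rpl28 (98.6) and Rpl9 (94.1). Per kb of mRNA, Rplp1 of the stalk was highest with 15315 counts, and Rpsa, the small subunit protein also known as the laminin receptor, was lowest with 60.7. The substrate Rps6 was named but not taken: it had a mean of 18.8 counts, with 5.31% of its windows unique. Rpl41 was not analysed here. The identifier named Rpl24 has coding products of 471 and 3150 bases in the annotation used here, so what its counts measured is uncertain, and counts of genes are also given without it.

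The totals per library were 8319445 to 14402442 counts, and the 55 genes held 0.705% to 1.26% of them. The fibroblast markers fixed for the check were all above 1 CPM (counts scaled to library size) in at least 1 library, and their summed level was 24600 to 57479 CPM. Summed macrophage markers ranged from 79.3 to 4285 CPM and endothelial markers from 30.9 to 54.1 CPM. Of the endothelial markers, Cldn5, Pecam1 and Tie1 were under 1 CPM in every library. In bulk RNA, fewer cells of a type and less RNA per cell cannot be told apart. Rps6kb1, which encodes S6K1, was at 23.5, 31.3 and 36.9 CPM in the 3 S6K1 KO libraries and at 61.5, 70.8 and 74.5 CPM in WT cells with RAS. Its log2 fold change was -1.17 (SE 0.17) with an edgeR adjusted p of 0.234, and 0.000101 with the replicate number as a block. In the DKO libraries Rps6kb1 was at 34.4, 39.7 and 38.1 CPM against 75.4, 83.6 and 82.5 CPM (log2 fold change -1.11, SE 0.11, edgeR adjusted p = 0.00908). Rps6kb2, which encodes S6K2, was at 2.67, 3.04 and 2.79 CPM against 24.5, 24.0 and 28.9 CPM (log2 fold change -3.18, SE 0.17, edgeR adjusted p = 7.44e-05). The counts do not separate the deleted exons from the rest of these genes.

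Most of the 55 genes moved together from library to library. In the S6K1 series and in the WT cells of the S6K1/S6K2 series, most of that movement went with the replicate number. The mean log2 CPM over the 55 was 6.52, 6.03 and 6.16 in the 3 S6K1 WT EV libraries, 6.71, 6.39 and 6.27 in WT with RAS, and 6.89, 6.37 and 6.40 in KO with RAS. Replicate 1 was the highest in each of these groups, and the groups overlapped. In the S6K1/S6K2 series the WT EV libraries had means of 6.81, 6.57 and 6.30, those of WT with RAS 6.62, 6.27 and 6.35, and the DKO libraries 6.602, 6.64 and 6.70. Here too replicate 1 was the highest in both WT groups. The DKO libraries were the closest to each other (SD 0.05, n = 3, against 0.18 to 0.30 in the other 5 groups), and replicate 1 was the lowest of them.

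**Figure D2:**
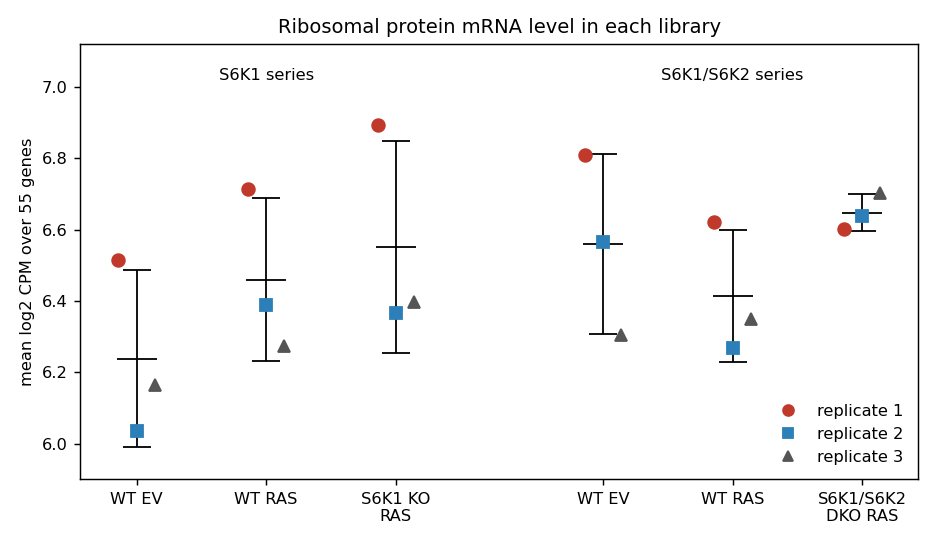
Mean log2 CPM over the 55 ribosomal protein genes in each of the 18 libraries by group, with marker shape and color for the replicate number, and horizontal bars for the group mean ± SD (n = 3). Replicate 1 is the top point in 5 of 6 groups, and the 3 DKO points lie between 6.602 and 6.70. CPM were scaled within each series, so levels are not compared between the series.

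Gene by gene the pattern was the same. Replicate 1 had the highest level of 53, 52 and 54 of the 55 genes in the 3 groups of the S6K1 series and of 52 and 51 in the EV and RAS groups of S6K1/S6K2 WT cells, but of 15 in DKO. In the S6K1 series the replicate number held a median of 66.1% of a gene's variance and the group 27.1%, against 39.1% and 38.5% over all 14036 genes tested. In the 6 WT libraries of the S6K1/S6K2 series the values were 68.0% and 7.81%, against 27.1% and 45.9% over all 13881 genes tested. The correlation of each gene with the mean of the other 54 had a median of 0.937 over the 9 libraries of the S6K1 series and 0.839 over those of the S6K1/S6K2 series. It was over 0.8 for 51 and 31 genes. These correlations share libraries and depth and are a description. Summed macrophage markers were also highest in replicate 1, in 6 of 6 groups. In the S6K1 series they summed to 3925, 2997 and 806 CPM for EV, 4285, 3802 and 839 CPM for RAS, and 1005, 779 and 283 CPM for KO. The muscle and the epithelial markers were highest in replicate 1 in 5 of 6 groups. The other lists were not: replicate 1 was highest in 2 of 6 groups for fibroblast, 1 for endothelial and 3 for proliferation markers. The part of other cell types in the levels of the ribosomal protein genes was not tested.

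The tightest genes within groups were Rplp0, the core of the stalk (pooled SD 0.15 log2 CPM), and Rpl4 (0.18). The loosest were Rpl37a (0.39) and Rps25 (0.36). By that count more genes left the common pattern in the S6K1/S6K2 series than in the S6K1 series. Rpl24 ran against it (r = -0.84 and -0.54 in the 2 series). Rpl10, with 5.73% unique windows, was unrelated to it (0.04 and -0.03), and Rpl15, with 11.4% unique windows, followed it in part (0.51 and 0.48). Rpl10a (0.98 and 0.37) and Rpl12 (0.91 and 0.43) left it in the S6K1/S6K2 series.

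**Figure D3:**
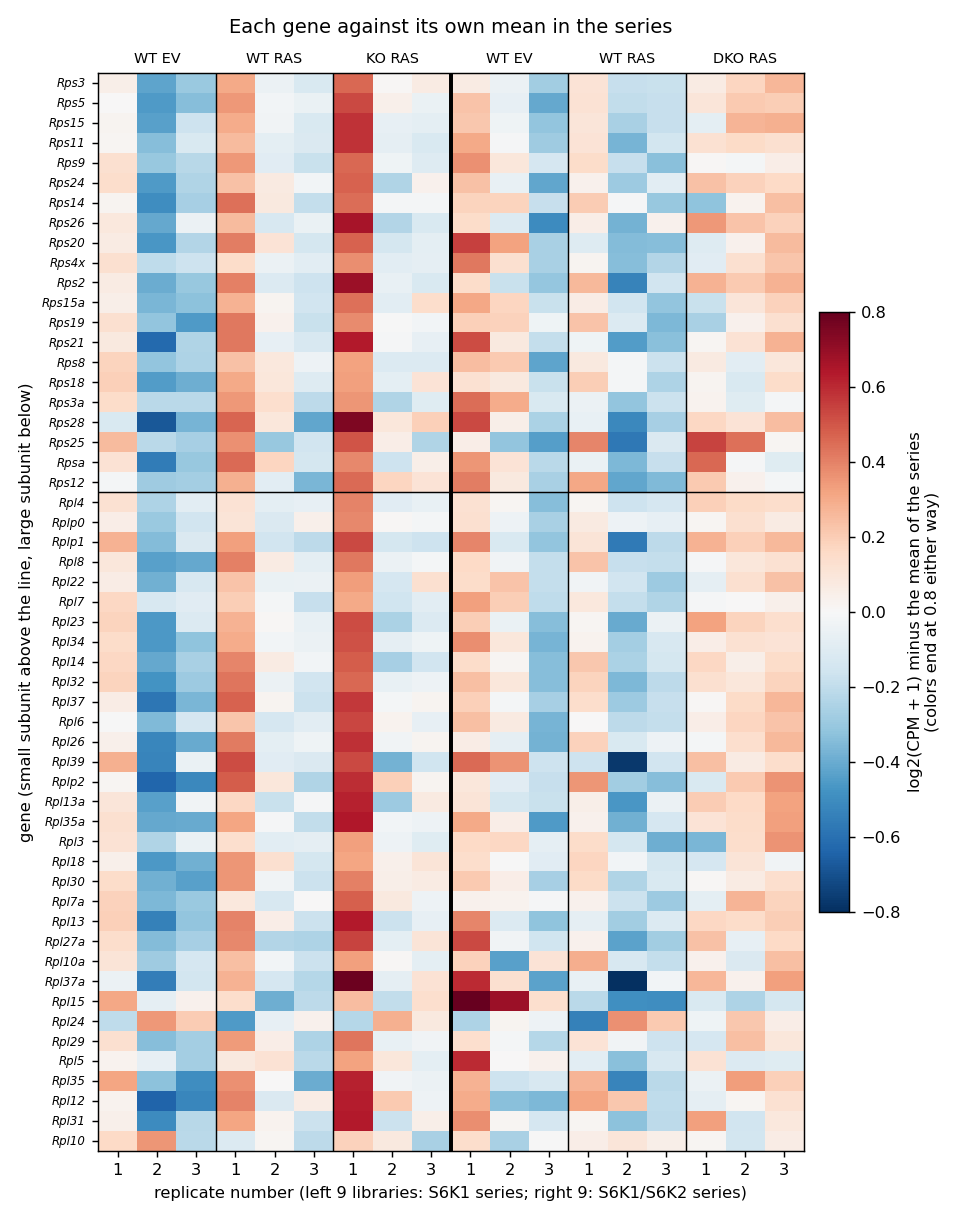
Log2(CPM + 1) of 54 of the 55 genes, each minus its mean over the 9 libraries of its series, in columns by group and replicate number and in rows by gene, red for above and blue for below. The first column of each group is red for most genes in 5 of 6 groups, the column of KO replicate 1 most of all, and the Rpl24 row has the opposite colors.

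The first comparison asked what RAS did in WT cells of the S6K1 series. Estimates for the 55 genes were mostly slightly above 0 with RAS, with a median log2 fold change of 0.23 (a fold of 1.17), and 52 of 55 estimates were above 0. One library moved this value by over 1.5 times: the median was 0.089, with 42 above 0, when replicate 1 of the RAS group was left out, and 0.34 when its replicate 3 was. With EV replicate 1 left out it was 0.40, and with EV replicate 2 left out 0.14. Over all genes tested the median was 0.00 and 50.2% were above 0. By edgeR's quasi-likelihood test with Benjamini-Hochberg adjustment 0 of the 55 were called, against 13.2% of all genes. At an unadjusted p under 0.05 there was 1 of the 55 (26.4% of all genes), and DESeq2 called 0 (15.1% of all genes). The count at an unadjusted p under 0.05 was 13 without EV replicate 1 and 5 without RAS replicate 3. The share of all genes at that level was not counted in these 2 settings. No gene had all its RAS libraries above all its EV libraries (15.9% of all genes did). Within replicate numbers the view was another: 40 of the 55 were higher with RAS in all 3 numbers (72.7%, against 31.6% of all genes), and 2 were lower in all 3 (31.5% of all genes). The replicate number was also fitted as a block, because same-numbered libraries deviated together over all genes. Over the 55 genes alone, RAS replicate 3 was closer to EV replicate 2 (r = 0.334) than to EV replicate 3 (0.291). With the block 23 of the 55 rose and 1 fell. Together they are 43.6% of the 55, against 36.2% of all genes, and the share that rose was 41.8%, against 18.1% of all genes; 18.1% of all genes fell. The medians within numbers 1, 2 and 3 were 0.22, 0.39 and 0.09. Summed fibroblast markers were lower with RAS (24763 to 36862 CPM) than with EV (46153 to 57479 CPM), and of those 12 genes 5 were called lower and 1 higher (13.2% of all genes were called). Of 10 proliferation markers, 2 were called lower and 0 higher. Epithelial markers summed to 5.12 to 10.3 CPM with EV and 121 to 157 CPM with RAS, with 4 of 4 tested genes called higher and Krt5 and Krt14 under 1 CPM in every library. Muscle markers summed to 57.5 to 86.7 CPM and 152 to 169 CPM, with 1 of 4 tested genes called higher, and 3 of 7 endothelial markers tested were called higher. None of 15 macrophage markers was called by edgeR or DESeq2 or had an unadjusted p under 0.05. With the block, 3 of the 15 were called higher and 2 lower (36.2% of all genes in either direction). The part of these markers in the ribosomal protein values was not tested.

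Among the single genes described here, Rpl12 and Rplp2 had the highest values. Rplp2, of the stalk, was at 96.1, 60.9 and 66.05 CPM with EV and at 133, 101 and 80.3 CPM with RAS. Every number was higher with RAS, yet the groups overlapped (log2 fold change 0.50, SE 0.24; edgeR adjusted p = 0.228, and 0.00252 with the block). Rpl12, at the base of the stalk, was at 19.0, 11.6 and 12.7 CPM against 24.9, 17.2 and 19.5 CPM (log2 fold change 0.50, SE 0.25; edgeR adjusted p = 0.239, and 0.00734 with the block). The other stalk genes differed less, with 0.14 (SE 0.15) for Rplp0 and 0.04 (SE 0.24) for Rplp1, and neither was called with or without the block.

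Rps14, a small subunit protein whose mRNA was the reference of the study's qPCR, was among the 23. Its levels were 260, 181 and 213 CPM with EV and 348, 270 and 224 CPM with RAS. Each number was higher with RAS, by 0.37 on the log2 scale (SE 0.21; edgeR adjusted p = 0.305, and 0.0162 with the block). Rps19, the small subunit protein mutated in Diamond-Blackfan anemia, was at 136, 99.9 and 90.8 CPM against 167, 128 and 110 CPM (0.31, SE 0.21; edgeR adjusted p = 0.386, and 0.00995 with the block). Rpsa was at 10.4, 6.10 and 7.502 CPM against 13.4, 10.8 and 8.50 CPM (0.45, SE 0.26; edgeR adjusted p = 0.32, and 0.0405 with the block). All 3 rose with the block and were not called without it.

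The 3 lowest values were those of Rpl24, Rpl15 and Rpl10. Rpl24 was at 21.96, 32.7 and 29.5 CPM with EV and at 18.3, 24.3 and 26.2 CPM with RAS, and it was the 1 gene that fell with the block (log2 fold change -0.29, SE 0.21; edgeR adjusted p = 0.418, and 0.0406 with the block). Rpl15 had a log2 fold change of -0.24 (SE 0.19) and Rpl10 of -0.23 (SE 0.20), and neither was called. These are also the 3 genes with the lowest correlation to the rest in this series. Without Rpl24 the median was 0.24, with 23 of 54 called with the block, all of them higher.

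The same comparison in the S6K1/S6K2 series gave values mostly below 0. Over all genes the median log2 fold change was -0.02, with 48.2% above 0. For the 55 it was -0.13 (a fold of 0.914), with 12 estimates above 0. A single gene was called, Rpl15, which was lower; the background was 26.3% of all genes in either direction and 12.7% lower. At an unadjusted p under 0.05 there were 6 of the 55 (39.8% of all genes), and DESeq2 called 2, Rpl15 and Rpl39 (25.5% of all genes). With the replicate block the count stayed at 1 (28.7% of all genes), again Rpl15. The groups did not overlap for Rpl15 and Rpl5, both lower (21.7% of all genes). The medians within numbers 1, 2 and 3 were -0.12, -0.29 and 0.07. Leaving out WT EV replicate 3 raised the count to 6 of the 55, with 4199 of 14205 genes called in that setting. Leaving out WT EV replicate 1 moved the median to 0.02. Without WT RAS replicate 1, 2 or 3 it was -0.23, -0.033 or -0.078, and without WT EV replicate 3 it was -0.20. Summed fibroblast markers were again lower with RAS (26762 to 30615 CPM against 46781 to 53010 CPM), and of those 12 genes 5 were called lower and 0 higher. Of the 10 proliferation markers, 9 were called lower. Epithelial markers summed to 1.32 to 4.45 CPM with EV and 99.6 to 136 CPM with RAS, with 4 of 4 tested genes called higher, and muscle markers to 9.50 to 42.7 CPM and 80.4 to 233 CPM, with 1 of 4 called higher. Of 6 endothelial markers tested, 2 were called higher and 1 lower. Macrophage markers had a median of -0.79, with 12 of 15 below 0, 0 called by edgeR or DESeq2, 0 with an unadjusted p under 0.05 and 5 called lower with the block. The part of these markers in the ribosomal protein values was not tested.

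Rpl15, a large subunit protein, was at 57.2, 49.5 and 33.4 CPM with EV and at 26.1, 21.4 and 21.3 CPM with RAS, so every EV library was above every RAS library. The log2 fold change was -1.03 (SE 0.19, edgeR adjusted p = 0.00449), with a 95% interval of -1.45 to -0.60. Over the other settings it stayed between -1.21 and -0.86, with adjusted p of 6.6e-05 to 0.0242. In the S6K1 series the same gene was at 34.3, 26.04 and 28.2 CPM with EV and 30.4, 20.8 and 23.6 CPM with RAS. The difference of the 2 effects was -0.79 (SE 0.28, edgeR adjusted p = 0.297), so the effect was not shown to differ between the series. With 11.4% of its windows unique and up to 15 further copies of a window, few of its reads have a single place in the genome; how the others were counted is not given in the sources used here, and its part in this value was not tested. In the NCBIM37 annotation it lies at chr14:19100337-19103905 on the minus strand.

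Rpl39, a small protein near the exit of the peptide tunnel, was at 143, 134 and 93.0 CPM with EV and 93.0, 60.9 and 94.0 CPM with RAS. Replicates 1 and 2 were lower with RAS and replicate 3 was level. The log2 fold change was -0.58 (SE 0.20; edgeR adjusted p = 0.0586, and 0.0416 with DESeq2). Rps20, a small subunit protein, was at 298, 255 and 170 CPM against 190, 160 and 161 CPM (log2 fold change -0.50, SE 0.20, edgeR adjusted p = 0.088). Rpl5, which carries the 5S rRNA together with Rpl11, was at 30.9, 20.1 and 20.6 CPM against 18.9, 15.7 and 18.2 CPM (log2 fold change -0.44, SE 0.19, edgeR adjusted p = 0.115). Rps14 was at 294, 293 and 228 CPM against 299, 258 and 211 CPM, a log2 difference of -0.09 (SE 0.19, 95% interval -0.51 to 0.33). The highest values were 0.23 for Rpl12 (SE 0.22), 0.19 for Rps25 (SE 0.27) and 0.15 for Rpl24 (SE 0.22), and none of these was called.

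**Figure D4:**
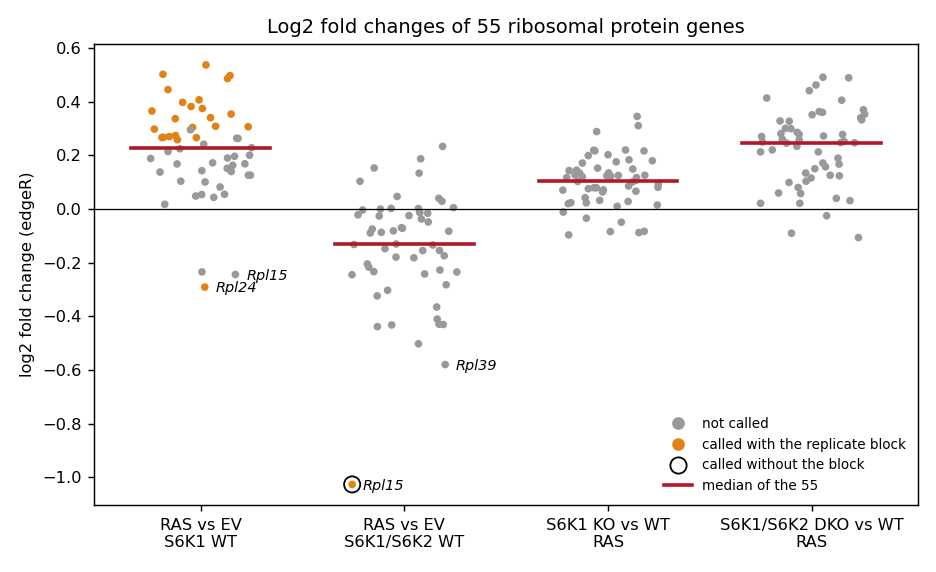
Log2 fold changes from edgeR of the 55 genes in the 4 comparisons, 1 point per gene with random sideways spread, orange where the gene was called with the replicate block, ringed where it was called without it, and a red line at the median. The medians are 0.23, -0.13, 0.11 and 0.25, and the only ringed point is Rpl15 at -1.03.

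The effects of RAS in the 2 series were then compared directly in a fit of all 18 libraries. The difference, S6K1/S6K2 minus S6K1, had a median of -0.39 over the 55 genes, with 3 above 0. Over all 14483 genes tested the median was -0.03, with 47.2% above 0. None of the 55 was called by edgeR (0% of all genes), 7 had an unadjusted p under 0.05 (12.6% of all genes), and 0 were called by DESeq2 (0.884% of all genes) or with the replicate block (0.4% of all genes). The lowest values were those of Rps28 (-0.93, SE 0.36), Rps20 (-0.86, SE 0.31) and Rpl39 (-0.79, SE 0.38), with edgeR adjusted p of 0.33, 0.312 and 0.403. The highest were those of Rpl24 (0.44, SE 0.31), Rpl10 (0.33, SE 0.25) and Rps25 (0.12, SE 0.40). Leaving out 1 library moved the median of the 55 to between -0.55 (without S6K1 WT EV replicate 1) and -0.22 (without S6K1 WT RAS replicate 1), with -0.25 without S6K1/S6K2 WT EV replicate 1. Scaling by total counts alone moved the median of all genes in this contrast to -0.13 and that of the 55 to -0.49. The genes for mitochondrial ribosomal proteins, a separate set of nuclear genes, had a median of -0.37 in the same contrast, with 0 of 71 called. Each series had its own WT libraries and the sample titles name no batch, so series and batch cannot be told apart.

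Loss of S6K1 in cells carrying RAS was the next question. Over all genes the median log2 fold change was 0.03, with 56.6% above 0. The 55 genes had a median of 0.11 (a fold of 1.08), with 48 above 0. None was called by edgeR, by DESeq2 or with the replicate block, and 0 of 55 had an unadjusted p under 0.05. The background was low here: edgeR called 1 gene of 14036 (0.00712%), 6.86% had an unadjusted p under 0.05, 0.65% were called by DESeq2, and 4.15% were called with the block. All 55 intervals lay within 1 log2 unit of 0. The highest values were those of Rpl37a, Rps12 and Rps28. Rpl37a, a large subunit protein, was at 33.5, 24.96 and 23.3 CPM in WT and 48.0, 26.1 and 29.9 CPM in KO (log2 fold change 0.35, SE 0.25, 95% interval -0.22 to 0.91). Rps12 had 0.31 (SE 0.21) and Rps28 had 0.29 (SE 0.27). The lowest were Rpl14 (-0.10, SE 0.23), Rpl39 (-0.09, SE 0.29) and Rpsa (-0.08, SE 0.26). KO replicate 1 stood above the other libraries for most genes, and without it the median was -0.11, with 9 estimates above 0. Without WT RAS replicate 1 the median was 0.24, and without replicate 2 or 3 of that group it was 0.041 or 0.0087. Without KO replicate 2 or 3 it was 0.19. Summed macrophage markers were lower in KO (283 to 1005 CPM) than in WT RAS (839 to 4285 CPM) with an overlap of the ranges, and of those 15 markers 0 were called by edgeR or DESeq2, 15 had an unadjusted p under 0.05 and 15 were called lower with the block. All 10 proliferation markers were below 0 (median -0.52), with 0 called by edgeR or DESeq2, 4 at an unadjusted p under 0.05 and 1 called lower with the block. The part of these markers in the ribosomal protein values was not tested.

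Rps6 itself was at 1.88, 1.79 and 1.52 CPM in WT RAS and 2.63, 2.22 and 1.41 CPM in KO RAS, so the groups overlapped. The log2 difference was 0.27 (SE 0.44), and its interval of -0.71 to 1.25 shows how little so few counts resolve. Rps14 was at 350, 253 and 253 CPM in KO RAS, a log2 difference of 0.02 from WT RAS (SE 0.21, 95% interval -0.44 to 0.49), and its sign turned with the scaling (-0.04 with total counts alone).

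Loss of both kinases left most of the 55 genes with estimates above 0 in cells with RAS, though without a call. Over all genes the median log2 fold change was 0.00, with 49.9% above 0. For the 55 it was 0.25 (a fold of 1.19), with 52 above 0. None was called by edgeR (0.0216% of all genes) or by DESeq2 (0.0367% of all genes), and 2 had an unadjusted p under 0.05 (1.29% of all genes). That count was 14 without WT RAS replicate 1, 13 with only the 6 compared libraries and 9 with no filter on low counts. It was 0 without WT RAS replicate 2, without DKO replicate 3 or with all 18 libraries. The share of all genes at that level was not counted in these settings, so these counts are only a description. In 16 genes every DKO library was above every WT RAS library (29.1%, against 3.02% of all genes), and in none was it the reverse. The median held between 0.19 and 0.36 with any 1 library left out. Replicate numbers 2 and 3 gave medians of 0.38 and 0.37, and number 1 gave -0.04, though the numbers do not pair the DKO and WT libraries. The DKO and WT cells were not littermates. Macrophage markers summed to 79.3 to 279 CPM in DKO and 196 to 1153 CPM in WT RAS. All 15 were below 0 (median -1.95), with 0 called by edgeR or DESeq2 and 1 at an unadjusted p under 0.05. With the block 3 of the 15 were called lower (0.0576% of all genes in either direction). Of the fibroblast, proliferation, epithelial, muscle and endothelial markers tested, none was called by edgeR or DESeq2. The part of these markers in the ribosomal protein values was not tested.

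Rpl39 and Rpl13a were the genes with an unadjusted p under 0.05. Rpl39 was at 93.0, 60.9 and 94.0 CPM in WT RAS and 124, 110 and 115 CPM in DKO RAS. All DKO values were above all WT RAS values (log2 fold change 0.49, SE 0.20, edgeR adjusted p = 1 after rounding, 95% interval 0.04 to 0.94). Rpl13a, which is also part of a complex that silences inflammatory mRNAs, was at 95.7, 66.8 and 89.4 CPM against 106, 103 and 116 CPM (log2 fold change 0.37, SE 0.15). Rplp1 of the stalk was at 741, 467 and 597 CPM against 838, 788 and 826 CPM (log2 fold change 0.44, SE 0.22). Again no DKO value was as low as a WT RAS value, in both genes. Rpl37a (0.49, SE 0.28) and Rps28 (0.46, SE 0.21) were the other high values, and Rpl12 (-0.11, SE 0.22), Rpl10 (-0.09, SE 0.18) and Rpl18 (-0.02, SE 0.13) were the lowest. Rps14 differed by 0.02 (SE 0.19, 95% interval -0.40 to 0.44), and Rps6 by 0.05 (SE 0.44). The RAS and loss comparisons of a series share the WT RAS libraries: Rpl39 had -0.58 with RAS and 0.49 with DKO, and the 2 values rest on the same 3 libraries.

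**Figure D5:**
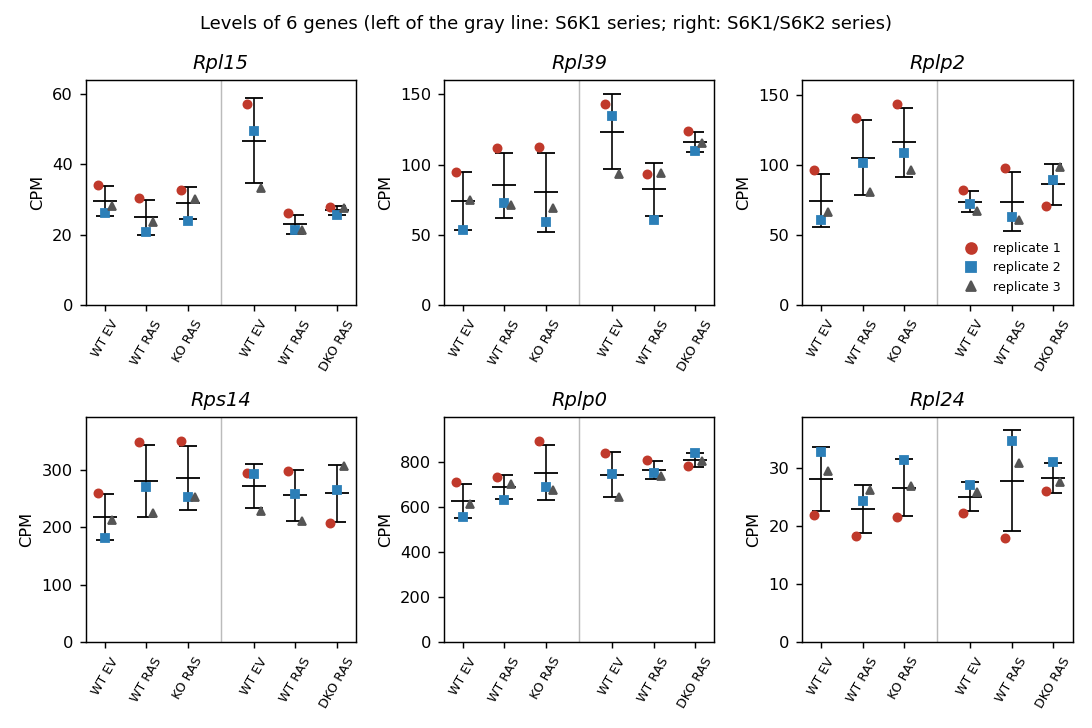
CPM of Rpl15, Rpl39, Rplp2, Rps14, Rplp0 and Rpl24 in each library by group, points for libraries with shape and color for the replicate number and bars for the mean ± SD (n = 3). Within the S6K1/S6K2 series Rpl15 is higher in the 3 WT EV libraries (33.4 to 57.2 CPM) than in the RAS libraries (21.3 to 27.9 CPM), and replicate 1 is lowest for Rpl24 in all 6 groups.

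The difference between the effects of losing S6K1 and of losing both kinases had a median of 0.15 over the 55 genes (0.01 over all genes). None was called by edgeR (0.0069% of all genes) or DESeq2 (0.00333%), and 0 had an unadjusted p under 0.05 (1.23%), so the larger median with DKO was not shown to differ from that with KO. Leaving out 1 library moved the median to between 0.011 (without S6K1 WT RAS replicate 1) and 0.35 (without S6K1 KO replicate 1).

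Small and large subunit genes had similar medians; the difference was not tested. With RAS the median was 0.26 for the 21 small subunit genes and 0.20 for the 34 large subunit genes in the S6K1 series, and -0.15 and -0.11 in the S6K1/S6K2 series. With KO the medians were 0.09 and 0.11, and with DKO 0.26 and 0.24. Genes with and without a pyrimidine run at the start were set side by side, with no test. The 16 genes with a run had medians of 0.21, -0.10, 0.12 and 0.24 in the order RAS, RAS in the S6K1/S6K2 series, KO and DKO, and the 26 without had 0.21, -0.15, 0.12 and 0.27.

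Named genes below 100 counts, and paralogs, were tested alongside. Of 8 other cytoplasmic ribosomal protein genes and paralogs tested, 0 were called by edgeR in any of the 4 comparisons. With RAS in the S6K1/S6K2 series 3 had an unadjusted p under 0.05 (39.8% of all genes) and DESeq2 called 2 (25.5% of all genes). Of the 21 named genes, 20 were tested. With RAS in the S6K1 series 1 of them was called (13.2% of all genes). It was Rpl9 of the large subunit, at 7.65, 6.40 and 5.67 CPM with EV and 12.6, 10.4 and 8.74 CPM with RAS (log2 fold change 0.68, SE 0.19, edgeR adjusted p = 0.0465). Rpl9 in the S6K1/S6K2 series had 0.22 (SE 0.26). None of the 20 was called in the other 3 comparisons. Rpl11, the partner of Rpl5, had log2 fold changes of 0.27 (SE 0.27) and -0.22 (SE 0.29) with RAS in the 2 series, 0.40 (SE 0.27) with KO and 0.19 (SE 0.30) with DKO. Rps27a, made as a fusion with ubiquitin, had 0.08 (SE 0.29), 0.29 (SE 0.25), 0.24 (SE 0.29) and -0.15 (SE 0.25) in the same order. Rps27 had 0.17 (SE 0.26), -0.21 (SE 0.38), -0.20 (SE 0.26) and 0.44 (SE 0.38). Its paralog Rps27l, a p53 target, was at 121, 75.01 and 95.5 CPM with EV in the S6K1 series and 155, 117 and 104 CPM with RAS (log2 fold change 0.36, SE 0.24; edgeR adjusted p = 0.39, and 0.0168 with the block). Rpl22, which binds its own paralog's mRNA, had 0.19 (SE 0.16) and -0.23 (SE 0.15) with RAS, and the paralog Rpl22l1 had 0.13 (SE 0.33) and -0.76 (SE 0.25; edgeR adjusted p = 0.0504, and 0.0411 with the block). Fau, a fusion of a ubiquitin-like unit with a ribosomal protein, averaged 1.55 to 2.03 CPM in the 6 groups and was not called.

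Genes of the same pathway gave the setting. Of 16 regulators of ribosomal protein synthesis, 1 rose and 1 fell with RAS in the S6K1 series, where 13.2% of all genes were called. In the S6K1/S6K2 series 4 rose and 1 fell, where 26.3% of all genes were called. Eef2k, the kinase that brakes elongation, fell in both, by 0.88 on the log2 scale (SE 0.14, edgeR adjusted p = 0.00391) and by 0.90 (SE 0.11, edgeR adjusted p = 0.000803). Mdm2, to which free ribosomal proteins bind, rose by 1.07 (SE 0.15, edgeR adjusted p = 0.00184) and 1.97 (SE 0.31, edgeR adjusted p = 0.00212). Myc, an activator of ribosome genes, had 0.83 (SE 0.27, edgeR adjusted p = 0.076) and rose by 1.23 (SE 0.31, edgeR adjusted p = 0.0187) in the second series. With DKO the 2 regulators called were Rps6kb1 and Rps6kb2, and with KO none was called.

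Of 18 other transcripts with a terminal oligopyrimidine motif, 2 rose with RAS in the S6K1 series (median 0.21, with 13.2% of all genes called). The 2 were Nap1l1, a nucleosome assembly protein, at 0.72 (SE 0.18, edgeR adjusted p = 0.0324), and Pabpc1, the poly(A) binding protein, at 0.65 (SE 0.14, edgeR adjusted p = 0.0151). In the S6K1/S6K2 series 3 rose and 2 fell (median 0.01, with 26.3% of all genes called). There Pabpc1 was at 0.88 (SE 0.17) and the host gene of small nucleolar RNAs Gas5 at -0.95 (SE 0.18, edgeR adjusted p = 0.00501). The elongation factor Eef1a1 had 0.02 (SE 0.13) and 0.06 (SE 0.16). With DKO all 18 were above 0 (49.9% of all genes), with a median of 0.20 and none called.

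Of 58 ribosome biogenesis genes, 1 rose and 1 fell in the S6K1 series (median 0.16) and 2 rose and 2 fell in the S6K1/S6K2 series (median 0.03). Of all genes, 13.2% and 26.3% were called in the 2 series. Polr1e, a subunit of RNA polymerase I, rose in both (0.48, SE 0.13, edgeR adjusted p = 0.0456, and 0.64, SE 0.18, edgeR adjusted p = 0.0297), and Ubtf, the rDNA transcription factor, fell in both (-0.43, SE 0.10, edgeR adjusted p = 0.0236, and -0.90, SE 0.14, edgeR adjusted p = 0.00205). Of 71 mitochondrial ribosomal protein genes tested, 3 rose in the S6K1 series (median 0.21) and 2 rose and 2 fell in the S6K1/S6K2 series (median -0.11). The shares of all genes called are the same 13.2% and 26.3%. No gene of either list was called with KO or DKO.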

How the data were processed

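RNA-seq was analysed from 18 libraries. The authors deposited raw counts per Ensembl gene, made from poly(A) RNA read as single-end 50-base reads. The study's methods name TopHat, mm9 and HTSeq, while the submitters' processing notes name mm10, CASAVA, STAR 2.7.1a and DESeq2 1.28.1, so the mapping is uncertain, and how reads with several places were counted is not given in the sources used here. Symbols came from gencode vM1 and named 32589 of 55401 identifiers, holding 99.1% of counts. Unique 50-base windows were computed by exact match to NCBIM37.

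Each series was fitted with edgeR 4.0.16 in R 4.3.3: TMM scaling, filterByExpr with a minimum of 10 counts, group as the only term, 2-sided quasi-likelihood tests, Benjamini-Hochberg adjustment over all genes tested and a threshold of 0.05. A gene is called higher or lower when it passes. The differences between the series used all 18 libraries. CPM are TMM-scaled within the series, log2 CPM uses a prior count of 2, and SE and 95% intervals are those of the fit. DESeq2 1.42.0, other scalings, other filters, other sample sets, a replicate block, the removal of single libraries and the removal of Rpl24 were the alternatives. The scripts were tested on simulated data.

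Replicate numbers come from the sample titles, which give a number after WT or KO and name no line, embryo or litter. The same numbers deviated together over all genes for RAS against EV (r = 0.684, 0.444 and 0.668 in the S6K1 series, and 0.366, 0.293 and 0.308 in the S6K1/S6K2 series). They also did for S6K1 KO against WT (0.692, 0.393 and 0.616). The pairing of those libraries by number is inferred from these correlations and is not stated in the titles. For DKO against WT the correlations were 0.279, 0.454 and -0.04, and there the replicate numbers are only numbers. MEF replicates came from different embryos, and p-values measure the spread between these libraries.

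The members and lists were chosen with earlier results of these data known, and the removal of Rpl24 was added after the data were seen. Named genes are, per comparison, up to 5 highest and 5 lowest called members, or the 3 highest and 3 lowest where fewer than 3 were called, a fixed list (Rps6, Rps14, the stalk, Rpsa, Rpl5, Rpl11, Rps27a, Rpl13a, Rpl22, Rps27, Rpl39, Rps19, Rpl41), the extremes of level and spread, those at the count threshold, the paralogs and up to 4 examples per other list. A few items that this rule names are not reported here.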

Additional observations from a re-analysis of the deposited data

How the results depend on the processing

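With the replicate block the S6K1 series had 24 of the 55 genes called with RAS in place of 0, and 23 after Rpl24 was also left out. Of all genes, 36.2% were called with the block and 13.2% without it. In the S6K1/S6K2 series the count with RAS was 1 (26.3% of all genes). It became 2 with DESeq2 (25.5% of all genes), with upper-quartile scaling (3699 of 13881 genes) and with no filter (3906 of 27277 genes). With total counts only it was 3 (3745 of 13881 genes). Leaving out 1 library gave 1 to 6, with 6 without WT EV replicate 3 (4199 of 14205 genes). The median there ranged from -0.23 to 0.024, the latter without WT EV replicate 1, and with KO from -0.11 to 0.24, the former without KO replicate 1. Other medians kept their sign but not their size when 1 library was left out: 0.089 to 0.40 for RAS in the S6K1 series, 0.19 to 0.36 for DKO, -0.55 to -0.22 for the difference of the RAS effects and 0.011 to 0.35 for that of the loss effects. The other counts of calls stayed at 0 under every alternative run, the replicate block included. For DKO against WT, where the numbers do not pair the libraries, the replicate block moved the calls over all genes from 3 to 8 and left 0 of the 55; DKO replicate 3 did not correlate best with its own number.

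Of 800 values for single genes, 753 kept their direction and call, 11 passed the threshold in addition and 36 turned in sign, all of them uncalled. With KO, Rps14 (0.02) was -0.0076 with upper-quartile scaling, -0.042 with total counts only, -0.0047 with 10 counts required throughout, -0.0044 with only the 6 compared libraries and -0.0044 with all 18. The other sign changes came from leaving out 1 library. With RAS in the S6K1/S6K2 series the ranges were -0.025 to 0.39 (Rpl24), -0.11 to 0.40 (Rps25) and -0.21 to 0.036 (Rps14). With KO they were -0.38 to 0.046 (Rpl14), -0.42 to 0.16 (Rpl39), -0.28 to 0.090 (Rpsa) and -0.16 to 0.21 (Rps14), and with DKO -0.25 to 0.0045 (Rpl12), -0.096 to 0.066 (Rpl18) and -0.12 to 0.16 (Rps14). For the difference of the RAS effects the range was -0.17 to 0.38 (Rps25), and for that of the loss effects -0.41 to 0.018 (Rpl24), -0.13 to 0.16 (Rpl15) and -0.17 to 0.20 (Rps14). The cause was not tested.

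With 3 libraries per group, the 95% intervals of 50, 52, 55 and 53 of the 55 genes lay within 1 log2 unit of 0 in the 4 comparisons. The share of reads lost to or gained from processed copies was not tested.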

Other observations

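The summed level of the 21 small subunit genes relative to that of the 34 large subunit genes was close between libraries. With EV in the S6K1 series the ratio was 0.748, 0.749 and 0.748, with RAS 0.819, 0.802 and 0.770, and in KO 0.815, 0.797 and 0.788. All RAS and KO values were above the EV values. In the S6K1/S6K2 series it was 0.807, 0.794 and 0.777 with EV, 0.804, 0.788 and 0.773 with RAS, and 0.767, 0.803 and 0.814 in DKO, where the groups overlapped. The ratio was looked at after the data were seen and was not tested.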
